A study of Homo sapiens with 6 samples.

Results

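Tetraspanins are small proteins that cross the cell membrane several times and gather integrins, immunoglobulin-domain proteins and membrane proteases into shared patches. Their mRNAs are translated on the endoplasmic reticulum, where the membrane segments are inserted, and the proteins then travel to the cell surface or to endosomes. AEG-1, the product of MTDH, is known as a membrane protein of the endoplasmic reticulum. The values described here are the AEG-1 contact sites called on 10 tetraspanin mRNAs, namely CD9, CD63, CD81, CD82, CD151, TSPAN3, TSPAN4, TSPAN6, TSPAN15 and TSPAN31. Sites were taken wherever the gene symbol of a site was one of these 10, which gave 74 of the 72385 sites in all 6 libraries. The values described were selected on the call itself, since the tables list a site only where one was called, and the 10 genes were picked with earlier results of these libraries known. Their sites are therefore a description, and no test was made on them.

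All 6 libraries came from AEG-1-14, a line derived from the liver tumour line HepG3 (given in the labels as hepatoblastoma) that stably expresses AEG1 carrying an HA tag at its C-terminus. The tagged protein was therefore present in the controls as well as in the irradiated cells. In CLIP, ultraviolet light bonds RNA to the protein it touches, the protein is precipitated, here with an antibody against HA, and the attached RNA fragments are sequenced. The groups were HITS-CLIP AEG1 (254 nm, 2 libraries), HITS-CLIP negative control (the same precipitation without ultraviolet light, 2 libraries), PAR-CLIP AEG1 (365 nm, 1 library) and PAR-CLIP negative control (without ultraviolet light, 1 library). The labels do not state that the paired HITS-CLIP libraries were grown apart, and the spread between them may be no more than technical.

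The HITS-CLIP AEG1 libraries held 6378 and 5651 sites, against 60 and 90 in their controls, and PAR-CLIP AEG1 held 60085 sites, against 121 in its control. Read depth is unknown, since only called sites were at hand. The mRNAs of 9 of 10 fixed hepatocyte markers carried sites in both HITS-CLIP AEG1 libraries, and all 10 in PAR-CLIP, beside 6.57% and 39.8% of protein-coding genes. Of these 10, 4 also had a site in at least 1 control, beside 0.718% of protein-coding genes. ALB had 11 and 9 sites in the HITS-CLIP controls and 13 in the PAR-CLIP control. Of 12 markers of other cell types, 10 had no site in any library, among them CD37 and CD53, the tetraspanins of white blood cells, while CD68 and LYZ had sites in each of the 3 AEG1 libraries. CLIP does not measure expression, so a gene without a site may be unexpressed, weakly expressed or not contacted, and these cannot be told apart here.

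A set of 5 of the 10 tetraspanin mRNAs carried sites in both HITS-CLIP AEG1 libraries, namely CD151, TSPAN3, TSPAN4, TSPAN6 and TSPAN15. Over all RefSeq protein-coding genes this held for 6.57%. The same 5 and TSPAN31 carried sites in PAR-CLIP AEG1, as did 39.8% of protein-coding genes. With sites at or above the library's median score alone, 3 members were in both HITS-CLIP libraries (CD151, TSPAN4 and TSPAN15), and with at least 2 sites required in each library the 3 were CD151, TSPAN4 and TSPAN6. Of the 6 with a PAR-CLIP site, 5 were in both HITS-CLIP libraries, while among all protein-coding genes with a PAR-CLIP site the share was 15.6%. Since the members were picked with these sites in view, the gap to the background is not evidence about tetraspanins as a family.

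No site on CD9, CD63, CD81 or CD82 was listed in the tables analysed here. Whether these tables hold every site called on those 4 mRNAs is not known, so the counts out of 10 may be too low. CD9 and CD81 are abundant surface tetraspanins of many cells and common markers of extracellular vesicles, CD81 is also an entry factor for hepatitis C virus in hepatocytes, CD63 sits in late endosomes and lysosomes, and CD82 is known as a suppressor of metastasis. Whether these mRNAs were present in AEG-1-14 cells was not measured.

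**Figure D1:**
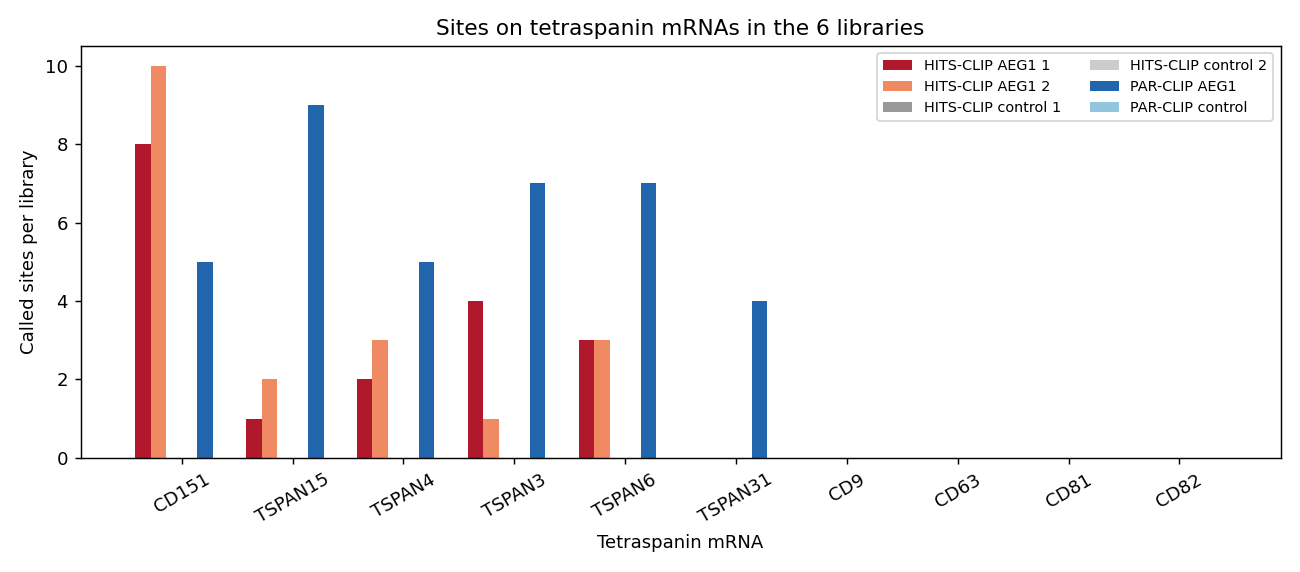
Number of called sites (vertical axis) on each of the 10 tetraspanin mRNAs (horizontal axis), with 1 bar per library. CD151 had 8 and 10 HITS-CLIP sites and 5 PAR-CLIP sites, whereas TSPAN15 had 1 and 2 HITS-CLIP sites and 9 PAR-CLIP sites. Every control bar is at 0.

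None of the 10 had a site in any of the 3 negative controls, where 0.718% of protein-coding genes had one in at least 1. The members held 18 and 19 sites in HITS-CLIP AEG1 (mean 18.5 ± 0.707, SD, n = 2), against 0 and 0 in the HITS-CLIP controls, and 37 sites in PAR-CLIP AEG1, against 0 in its control. The control lists were too short for these zeros to say much. At the members' share of HITS-CLIP AEG1 sites, 0.308%, lists as long as the HITS-CLIP controls would hold 0.185 and 0.277 member sites, and at their PAR-CLIP AEG1 share of 0.0616% the PAR-CLIP control would hold 0.0745.

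CD151 led the family in HITS-CLIP. CD151 binds the laminin-binding integrins and holds epithelial cells to the basement membrane. Its mRNA (NM_139030) carried 8 HITS-CLIP sites in replicate 1 and 10 in replicate 2 (mean 9 ± 1.41, SD, n = 2), and 5 sites in PAR-CLIP. The HITS-CLIP sites covered 510 nt in replicate 1 and 513 nt in replicate 2, of which 404 nt were shared. Fewer sites were held by 88.3% of the 1860 genes with a site in replicate 1 and by 92.7% of the 1701 genes in replicate 2. Site numbers here and later are per mRNA and not per length, since transcript lengths were not at hand. In PAR-CLIP, with 8001 genes, 45.6% of genes had fewer sites than CD151, and 81.3% had a shorter covered length than its 1177 nt.

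Most CD151 sites of either replicate overlapped a site of the other. Of the replicate 1 sites, 7 of 8 shared 1 nt or more with a replicate 2 site, and 9 of 10 replicate 2 sites overlapped one of replicate 1. Replicate 2 sites covered 513 nt between nt 181 and 910, so sharing 1 nt there says little about position. Where 50% of each site had to be covered, 6 of 8 and 6 of 10 overlapped. Closely placed pairs lay, for example, at nt 186 to 223 and 181 to 221, nt 557 to 588 and 557 to 595, nt 629 to 671 and 636 to 668, and nt 735 to 792 and 734 to 780, in replicates 1 and 2 of each pair. The unpaired sites were the outermost ones, nt 36 to 77 in replicate 1 and nt 863 to 910 in replicate 2. Site boundaries were less stable than positions, since a single replicate 1 site from nt 272 to 416 met replicate 2 sites at nt 283 to 339 and 345 to 404.

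PAR-CLIP on CD151 gave a site of 687 nt from nt 38 to 724 and another from nt 728 to 937. These wide sites took in all 18 HITS-CLIP sites of the mRNA, and 99.7% of the nt covered by HITS-CLIP were also covered by PAR-CLIP. Overlap with sites that span most of a stretch says little about agreement at single positions. The other 3 PAR-CLIP sites lay further along, from nt 1045 to 1388, where neither HITS-CLIP library had a site.

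**Figure D2:**
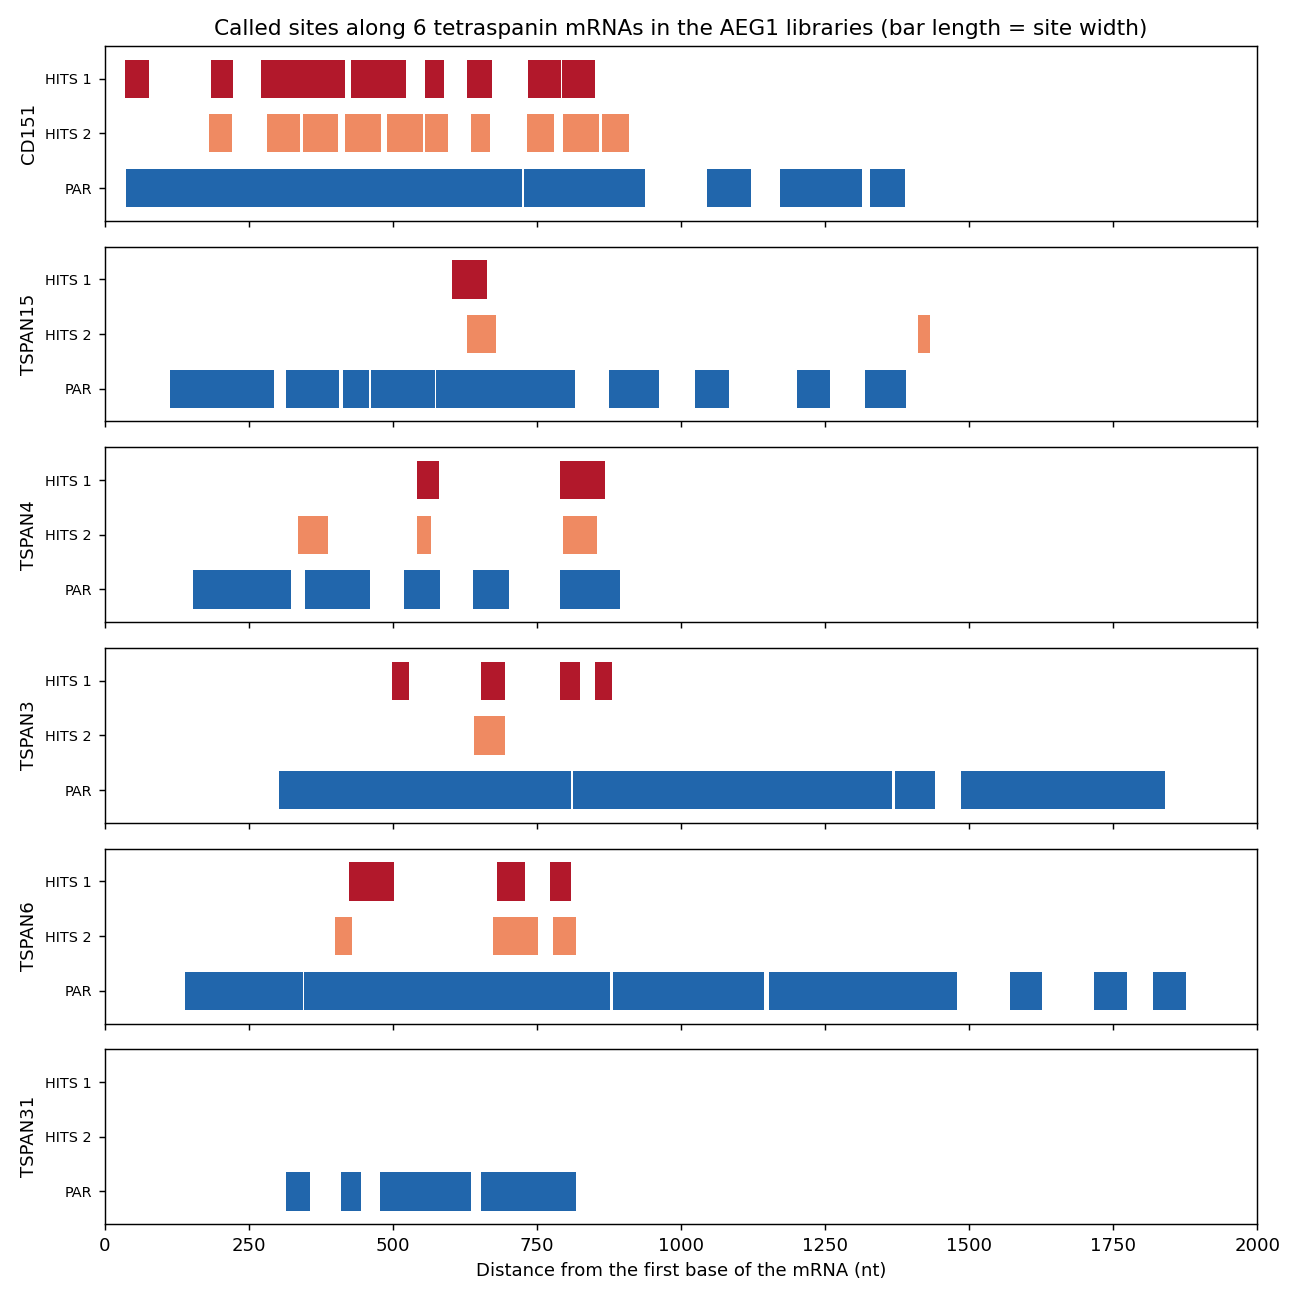
Positions of the called sites along the 6 tetraspanin mRNAs that had any, in nt from the first base of the mRNA (horizontal axis), with 1 row per AEG1 library and each bar as long as its site. Most HITS-CLIP sites on CD151, TSPAN4 and TSPAN6 overlap a site of the other replicate, and on CD151, TSPAN3 and TSPAN6 the PAR-CLIP sites extend well past the last HITS-CLIP site.

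TSPAN4 has been described in integrin complexes and in migrasomes, the vesicles left behind by moving cells. On its mRNA (NM_001025234) HITS-CLIP gave 2 and 3 sites (mean 2.5 ± 0.707, SD, n = 2) and PAR-CLIP 5. The replicates shared a site at nt 542 to 580 and 543 to 565 and another at nt 791 to 867 and 795 to 854. The second place also held the highest PAR-CLIP score of the mRNA, 10.19 at nt 790 to 894, and the highest HITS-CLIP score of replicate 2, 9.51. In replicate 1 both places scored 9.19. A HITS-CLIP site at nt 336 to 388 was in replicate 2 alone.

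TSPAN6, which has been linked to endosomal sorting and exosome formation, carried 3 HITS-CLIP sites in each replicate and 7 PAR-CLIP sites (NM_003270). All 3 sites of each replicate overlapped one in the other, at nt 424 to 501 and 401 to 429, nt 681 to 729 and 674 to 751, and nt 773 to 809 and 778 to 818. The replicates differed in which site scored highest, with 6.27 at the first place in replicate 1 and 7.59 at the second place in replicate 2. A single PAR-CLIP site from nt 346 to 876 covered all of these, and PAR-CLIP sites continued to nt 1875.

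TSPAN3, a widely expressed tetraspanin, differed most between the replicates by number of sites, with 4 HITS-CLIP sites in replicate 1 and 1 in replicate 2 (mean 2.5 ± 2.12, SD, n = 2), and had 7 PAR-CLIP sites (NM_005724). The lone replicate 2 site, nt 642 to 695, overlapped the replicate 1 site at nt 653 to 695 and ended at the same base. The other replicate 1 sites, of 28 to 34 nt, were not in replicate 2. PAR-CLIP sites ran from nt 303 to 1839, and 61.4% of the PAR-CLIP nt lay past the last HITS-CLIP site.

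TSPAN15 escorts the membrane protease ADAM10 to the cell surface and steers its choice of substrates. Its mRNA (NM_012339) carried 1 and 2 HITS-CLIP sites (mean 1.5 ± 0.707, SD, n = 2) and 9 PAR-CLIP sites. The shared HITS-CLIP site lay at nt 604 to 663 in replicate 1 and nt 629 to 678 in replicate 2, with scores of 11.50 and 11.41. The further replicate 2 site, nt 1411 to 1431, was 21 nt wide and was the only HITS-CLIP site on a member without PAR-CLIP cover. The highest PAR-CLIP score, 12.50, lay upstream of the shared site at nt 462 to 572, a stretch without HITS-CLIP sites.

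TSPAN31, first described as a gene amplified in sarcomas, had 4 PAR-CLIP sites between nt 316 and 818 (NM_005981) and none in either HITS-CLIP library. Its PAR-CLIP sites covered 399 nt, the shortest length among the 6 members with sites. Of 971 other protein-coding genes with a PAR-CLIP length within 20% of that, 8.96% had sites in both HITS-CLIP libraries. For genes within 20% of the length on TSPAN4, 512 nt, the share was 10.6%, and TSPAN4 itself had such sites. For genes within 20% of the length on TSPAN6, 1493 nt, the share was 36.3%. Why TSPAN31 had no HITS-CLIP site was not tested.

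Over the 5 members with HITS-CLIP sites, 14 of 18 replicate 1 sites overlapped a replicate 2 site, 77.8% (exact 95% binomial interval 52.4 to 93.6, counting error only), beside 63.2% of replicate 1 sites over all genes. In the other direction 16 of 19 did, 84.2% (60.4 to 96.6), beside 71.3% over all genes. Of the members' HITS-CLIP sites in both libraries, 36 of 37 overlapped a PAR-CLIP site, 97.3% (exact interval 85.8 to 99.9), beside 90.3% over all genes. The members' sites share mRNAs, with 18 of the 37 HITS-CLIP sites on CD151, so the intervals treat as independent what is not and no difference from all genes is read from them. In reverse, 9 of the 37 PAR-CLIP sites on members touched a HITS-CLIP site. The share over all genes was not computed in this direction, so this count is not read as a trait of the members.

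The PAR-CLIP sites on members had a median width of 105 nt, against 73 nt over all PAR-CLIP sites. By mRNA the median ran from 86 nt on TSPAN15 to 204 nt on TSPAN6. Of the 37 sites, 5 (13.5%) spanned at least 300 nt, against 2.35% of all sites. All 5 lay on CD151, TSPAN3 and TSPAN6, and the widest on TSPAN4, TSPAN15 and TSPAN31 were 170, 240 and 165 nt. Among the other tetraspanins, TSPAN13 alone had a site that wide, of 607 nt. The members' HITS-CLIP sites had a median width of 48 nt, against 52 nt over all HITS-CLIP AEG1 sites. The last HITS-CLIP base stood at 0.656 of the last PAR-CLIP base on CD151, 0.478 on TSPAN3, 0.970 on TSPAN4, 0.436 on TSPAN6 and 1.03 on TSPAN15. The median over 1244 transcripts with sites in both HITS-CLIP libraries and PAR-CLIP was 0.691, with CD151, TSPAN3 and TSPAN6 below it and TSPAN4 above. The TSPAN15 value rests on the 21 nt site at nt 1411 to 1431, found in replicate 2 alone. Without it the last HITS-CLIP base would be nt 678, against nt 1390 in PAR-CLIP, and TSPAN15 would lie below the median. Coding and untranslated parts of these mRNAs were not analysed here.

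The authors' score is on a log2 scale and relative to a constant of each mRNA, so scores were compared within an mRNA only. Within each of the 6 members with sites, 2 to the power of every score was a whole number times 1 of a small set of fixed multipliers, over 1 constant shared by the libraries. These whole numbers, called units, give the weight of a site within its mRNA. What a unit stands for is unknown, and units were not treated as reads.

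On CD151 the sites summed to 66 and 63 units in the HITS-CLIP AEG1 replicates and 73 units in PAR-CLIP AEG1. The unit sums of the 3 libraries were alike, while the covered length was 510 and 513 nt in HITS-CLIP and 1177 nt in PAR-CLIP. On TSPAN4 the sums were 8 and 9 in HITS-CLIP and 24 in PAR-CLIP, and on TSPAN15 they were 8 and 9 in HITS-CLIP and 54 in PAR-CLIP. TSPAN6 had 9 and 22 in HITS-CLIP and 140 in PAR-CLIP. TSPAN3 had 10 and 7 in HITS-CLIP and 170 in PAR-CLIP, the widest gap. TSPAN31 had 20 in PAR-CLIP alone, read from only 4 sites.

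The ratio of mean HITS-CLIP units to PAR-CLIP units, which is free of the constant of the mRNA, was 0.884 on CD151, 0.354 on TSPAN4, 0.157 on TSPAN15, 0.111 on TSPAN6 and 0.0500 on TSPAN3. The median over 1110 transcripts with sites in both HITS-CLIP libraries and PAR-CLIP was 0.167. CD151 exceeded 92.9% of them and TSPAN4 75.9%, while TSPAN3 exceeded 13.2%. The spread within 1 protein family thus ran from near the bottom to near the top of the transcripts compared. PAR-CLIP had a single library, so its own spread is not in these ratios.

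**Figure D3:**
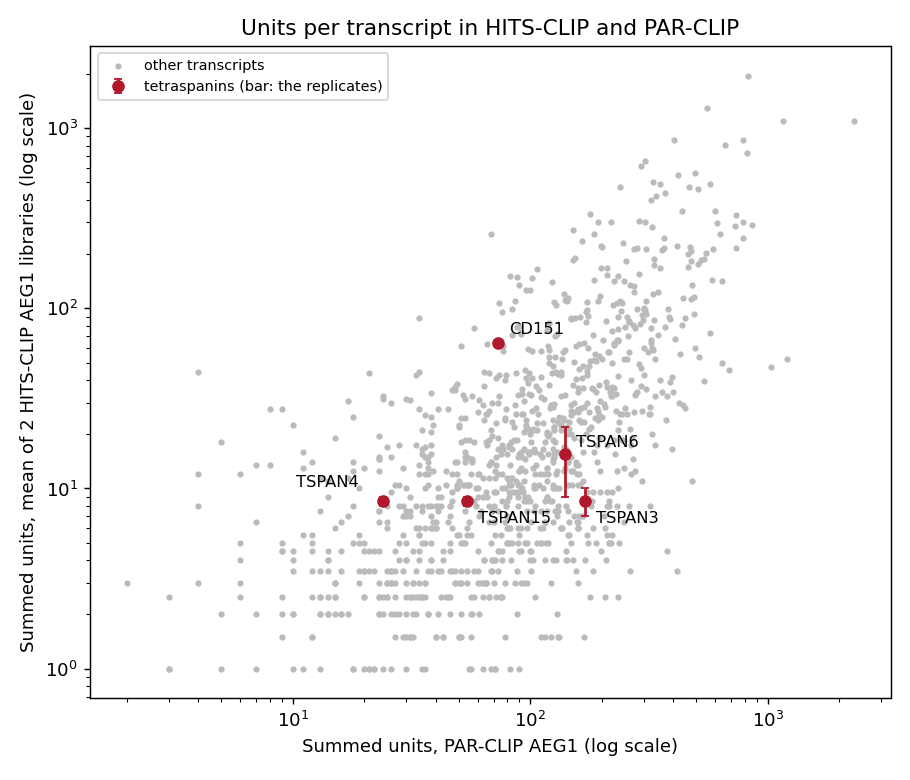
Summed units per transcript in PAR-CLIP AEG1 (horizontal axis, log scale) and in HITS-CLIP AEG1 (vertical axis, log scale, mean of 2 libraries), for 1110 transcripts. Red points are the 5 tetraspanins with HITS-CLIP sites, with bars joining the replicates. CD151 lies high for its PAR-CLIP sum and TSPAN3 low.

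The share of HITS-CLIP units held by the strongest site differed between members. On CD151 the strongest HITS-CLIP site held 25 of 66 units in replicate 1 (nt 272 to 416) and 12 of 63 in replicate 2 (nt 734 to 780). On TSPAN15 the shared site held 8 of 8 units in replicate 1 and 8 of 9 in replicate 2. These shares depend on the number of sites, which was 8 and 10 on CD151 but 1 and 2 on TSPAN15. A single site on TSPAN3 in replicate 2 likewise held 7 of 7 units, against 3 of 10 for the strongest site in replicate 1. The strongest sites held 4 of 8 and 5 of 9 units on TSPAN4, and 6 of 9 and 15 of 22 on TSPAN6.

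Among the other 23 human tetraspanins, 3 carried sites in both HITS-CLIP AEG1 replicates, and 8 did in PAR-CLIP. TSPAN13 had 4 and 2 HITS-CLIP sites, none of which overlapped a site of the other replicate, and 8 PAR-CLIP sites. TSPAN8, known from gastrointestinal tumours, had 3 and 2 HITS-CLIP sites and 6 PAR-CLIP sites. TSPAN7 had 2 and 1 HITS-CLIP sites and 7 PAR-CLIP sites. On both TSPAN8 and TSPAN7 a replicate 1 site overlapped a replicate 2 site. TSPAN14 had 17 PAR-CLIP sites, the most of any tetraspanin, and TSPAN9 had 11, both without a HITS-CLIP site. TSPAN1 and TSPAN33 had 2 PAR-CLIP sites each and TSPAN17 had 1. The remaining 15 had no site. Over the whole family of 33, 8 were in both HITS-CLIP libraries, where 6.57% of protein-coding genes were, and none was in a control. In PAR-CLIP 14 of 33 had sites, a share near the 39.8% of protein-coding genes.

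**Figure D4:**
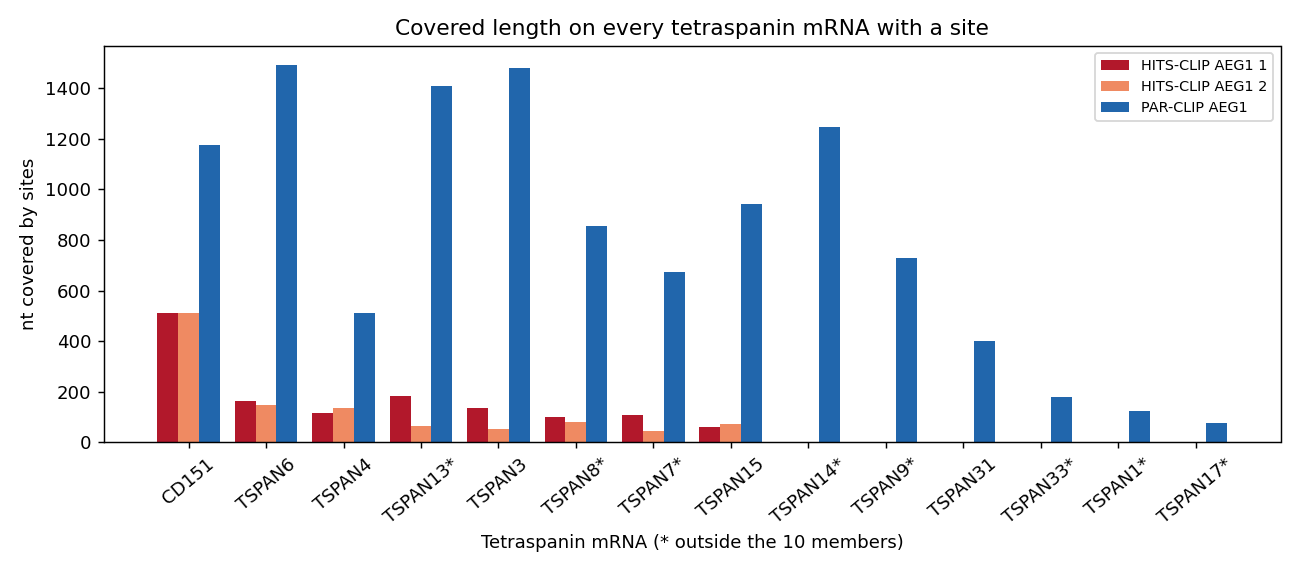
Length covered by sites in nt (vertical axis) on the 14 tetraspanin mRNAs with any site (horizontal axis), in each AEG1 library. CD151 had the longest HITS-CLIP cover, 510 and 513 nt, and TSPAN14 had 1247 nt in PAR-CLIP without HITS-CLIP cover.

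In the RefSeq gene order of GRCh38.p14, CD151 and TSPAN4 have 1 protein-coding gene between them, and both carried sites in all 3 AEG1 libraries. CD81 lies beside TSPAN32 and CD82 beside TSPAN18, with 0 protein-coding genes between, and no site on these 4 was listed. Of all 33 tetraspanins, 19 had no site listed, and sites on CD81 and CD82 may be missing. A link between gene order and sites was not tested.

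Of a set of 6 tetraspanins known to bind ADAM10, TSPAN15 alone had sites in both HITS-CLIP libraries, beside 6.57% of protein-coding genes. TSPAN15, TSPAN14, TSPAN17 and TSPAN33 had PAR-CLIP sites, beside 39.8% of protein-coding genes, and TSPAN5 and TSPAN10 had no site. This grouping was made after the values were seen. The mRNA of ADAM10 itself carried 12 and 11 HITS-CLIP sites and 23 PAR-CLIP sites.

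Known partners of tetraspanins were listed from textbook knowledge, with earlier results of the series known. Of 15 partners, 9 carried sites in both HITS-CLIP AEG1 replicates, and 12 did in PAR-CLIP, beside 6.57% and 39.8% of protein-coding genes. The integrin chain ITGB1 had 19 and 13 HITS-CLIP sites and 11 in PAR-CLIP, and ITGA6, a chain of the laminin receptors that CD151 binds, had 5 and 3 in HITS-CLIP and 23 in PAR-CLIP. ITGB4, which pairs with ITGA6, had 1 and 2 HITS-CLIP sites and 9 in PAR-CLIP. The cell adhesion protein EPCAM had 9 and 10 HITS-CLIP sites and 5 in PAR-CLIP. CLDN1, the tight junction protein that pairs with CD81, had 8 and 8 HITS-CLIP sites, 11 PAR-CLIP sites and 1 site in the PAR-CLIP control. Of the immunoglobulin-domain partners, IGSF8 had 1 HITS-CLIP site in each replicate and 8 in PAR-CLIP, and PTGFRN had 2 and 1 in HITS-CLIP and 26 in PAR-CLIP. IFITM1, an interferon-induced protein, had 2 in each AEG1 library. ITGA5, the adaptor SDCBP and the protease inhibitor TIMP1 had PAR-CLIP sites only, and 3 partners had none.

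In the L6 family, whose proteins have a like membrane layout but are not tetraspanins, 2 of 6 mRNAs carried sites in both HITS-CLIP libraries, TM4SF4 with 4 and 3 and TM4SF5 with 3 and 3. Both also had PAR-CLIP sites, 6 and 5. Over protein-coding genes the shares were 6.57% in both HITS-CLIP libraries and 39.8% in PAR-CLIP.

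By covered length over the 6 libraries, taken as log2(nt + 1), the 5 genes nearest to the median profile of the 10 members were HAUS6, RAI1, TBC1D17, SEC24D and SEC23IP, at distances of 1.92 to 2.02. That median falls between members with and without HITS-CLIP sites and describes neither. For CD151 alone, a choice made after its values were seen, the nearest were ASGR2, SSR2, COL9A3, KNG1 and ERGIC3, at distances of 0.173 to 0.298. ASGR2, a chain of the asialoglycoprotein receptor, had 510 and 455 nt in HITS-CLIP and 1175 nt in PAR-CLIP.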

How the data were processed

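Bowtie is named, per the submitters' processing notes. Site caller, threshold, reference and use of controls were not given in the sources used here, and depth is unknown. The authors deposited 1 file per library, which gives for every site a RefSeq mRNA, symbol, start, end and a score, which the values show to be log2. Starts were taken as 0-based and printed 1-based. Positions are on the mRNAs, and no genome coordinates are given.

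The members, lists, named genes and first alternatives were chosen with earlier results of these data known. Named were all members, other tetraspanins with a site, partners in both HITS-CLIP AEG1 libraries and the 5 nearest profiles. Symbols were updated by accession from RefSeq (GRCh38.p14, 20056 protein-coding genes), and all 33 tetraspanins matched. Overlap meant at least 1 nt. Units were found with a relative tolerance of 2e-05, in 1110 of 1113 transcripts with at least 6 sites. Overlap and unit steps were tested on simulated data. The multipliers of the units were read from these scores and also used to simulate, so whether units describe the scores was not tested there. Intervals are exact Clopper-Pearson. Python 3.11.15, pandas 2.3.3 and scipy 1.17.1 were used. Without read counts, no count model applied.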

Additional observations from a re-analysis of the deposited data

How the results depend on the processing

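No paired analysis was possible because no test was made on these called sites. Among 21 alternatives to 7 results, 16 left a count within 1.5 times that reported or a share within its binomial interval, which is wide. Among these, the share of HITS-CLIP member sites that overlapped the other replicate was 64.9% when 50% of each site had to be covered, beside 81.1%, and PAR-CLIP member sites numbered 28 at or above the median score, beside 37. With sites at or above the median score of each library alone, the members in both HITS-CLIP AEG1 libraries numbered 3 in place of 5, and their mean sites per library 11 in place of 18.5. Scores carry a constant of each mRNA, so that filter selects mRNAs as well as sites. With at least 2 sites required in each library, they numbered 3. The share of HITS-CLIP member sites under PAR-CLIP cover was 100% for sites over 25 nt, and 94.7% to 100% when 1 replicate was left out, beside 97.3% for both. Leaving out either replicate gave 5 members, and 18 to 19 sites. No member had a site in a control with or without short sites. The small number of sites on the members limits every share given, and the short control lists limit what their zeros can show.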
